A study of Mus musculus with 4 samples.

Results

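The S100 family was followed through 8 of its genes: S100a1, S100a4, S100a6, S100a8, S100a9, S100a10, S100a11 and S100a13. They were taken by symbol from a count table of 55487 Ensembl genes, and all 8 were found. The S100 proteins are small calcium sensors that mostly pair with each other or with a partner protein. On binding calcium they change shape and expose a surface that grips targets such as annexins, myosin or enzymes. S100a8 and S100a9 encode the subunits of calprotectin, which fills the cytosol of neutrophils, is also made by monocytes, withholds zinc and manganese from microbes, and signals through the receptors Tlr4 and Ager once released. The other members are made by many cell types.

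The RNA came from 4 libraries of poly(A) RNA. The wt/wt group (n = 2) was LysM-Cre IL10R wt/wt and the fl/fl group (n = 2) was LysM-Cre IL10R fl/fl. Both groups carry LysM-Cre, which expresses Cre recombinase from the lysozyme 2 locus in macrophages, monocytes and granulocytes. The floxed receptor gene is therefore removed only in cells where that locus has been active. The sort kept CD45+ CD3- CD11c- CD11b+ cells, a gate open to monocytes, macrophages and neutrophils alike. The age and sex of the mice, and whether each library is another animal, are not in the labels. The p-values therefore measure the spread between these samples, which in wt/wt may be technical.

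Wherever a pair of values follows, library 1 comes first. Total counts were 17154042 to 26441014 per library. Il10ra, taken as the floxed chain although the labels write only IL10R, had levels of 1111 and 993 CPM (counts scaled to library size with TMM factors) in the wt/wt libraries, against 69.3 and 14.8 CPM in the fl/fl libraries. The genes of the sort matched their gates for CD45 (Ptprc at 1095 to 1580 CPM), CD11b (Itgam at 368 to 501 CPM) and CD3 (Cd3e, Cd3d and Cd3g at no more than 1.31 CPM in any library). Itgax, the gene of CD11c, against which the cells were sorted, still held 158 and 134 CPM in the wt/wt libraries and 24.6 and 47.1 CPM in the fl/fl libraries. Timd4, a defining gene of resident Kupffer cells, had 1 count in all 4 libraries together. Xist was found at 4298 counts in fl/fl 2 and at 0 elsewhere. The Y-linked genes Ddx3y, Eif2s3y, Kdm5d and Uty together had 5207 and 6562 counts in the wt/wt libraries, and 3455 and 1 in the fl/fl libraries. The fl/fl libraries thus differed in sex and came from different animals. Both wt/wt libraries were male, so sex was mixed within fl/fl only.

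S100a8 and S100a9 lie 23.7 kb apart on chromosome 3, measured between their lowest coordinates, and are read from opposite strands. Because the pair rose together, the 250 bases before each RefSeq start (GRCm38.p6) are shown, 5′ to 3′ on the strand of the gene. They lie at chr3:90668821-90669070 on the plus strand for S100a8 and at chr3:90695722-90695971 on the minus strand for S100a9. Capitals mark matches on either strand to TATAAA, the TATA box, and to TTNNGNAA, a relaxed form of the site of C/EBP factors.
S100a8: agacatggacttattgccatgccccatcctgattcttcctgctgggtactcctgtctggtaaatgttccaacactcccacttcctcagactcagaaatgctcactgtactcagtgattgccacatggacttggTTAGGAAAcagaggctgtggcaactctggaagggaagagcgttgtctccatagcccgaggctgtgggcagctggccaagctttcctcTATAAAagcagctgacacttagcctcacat
S100a9: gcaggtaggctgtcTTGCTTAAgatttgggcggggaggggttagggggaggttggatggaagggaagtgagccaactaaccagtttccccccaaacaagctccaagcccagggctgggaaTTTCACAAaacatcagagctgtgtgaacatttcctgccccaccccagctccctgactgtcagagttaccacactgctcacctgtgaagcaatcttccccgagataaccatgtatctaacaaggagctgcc

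The S100a8 window held TATAAA at 30 bases before the start and a C/EBP-like match, TTAGGAAA, at 117 bases before it. The S100a9 window held a pair of C/EBP-like matches, TTGCTTAA and TTTCACAA, at 236 and 130 bases before the start. Its TATAAA began at base 1 after the annotated start, outside the letters shown. TTNNGNAA was present in 36.8% of 32817 RefSeq promoter windows of 250 bases and TATAAA in 12.4%, or 13.6% with 50 bases after the start included. Among the 7 members with a window, the C/EBP-like letters were found in S100a8 and S100a9, and TATAAA before the start in S100a4 and S100a8. GAGGAA, a core of PU.1 sites, was found for S100a8 and S100a11 and in 23.3% of all windows, and TGANTCA, the AP-1 site, for S100a11 and in 6.75%. TTCNNNGAA, the form that STAT factors bind, was found in 0 of the 7 and in 7.01% of all windows. All were searched on both strands, no capital run above overlaps another, and a match is a run of letters rather than a shown binding site.

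The genotype comparison asked which genes liver myeloid cells express at another level when LysM-Cre acts on a floxed IL-10 receptor. S100a8 and S100a9 rose in the fl/fl libraries, by 11.6-fold and 8.57-fold, and the other 6 members did not pass the test. S100a6, S100a11, S100a1 and S100a13 had higher values in both fl/fl libraries than in either wt/wt library, by 1.51-fold to 2.07-fold. S100a10 and S100a4 overlapped between the genotypes. In all, 2 of 8 members were higher at an adjusted p under 0.05 (edgeR quasi-likelihood test), where 5.85% of all 13496 tested genes passed, 2.69% higher and 3.16% lower. None of the 8 was lower, by edgeR at an adjusted or an unadjusted p under 0.05, by DESeq2 or by limma-voom. In 6 of 8 members the libraries of the genotypes did not overlap, where 54.4% of all tested genes did not. The median log2 fold change of the members was 0.69, beside 0.02 over all tested genes. All 8 passed the filter on low counts.

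S100a8 (ENSMUSG00000056054; GRCm38 chromosome 3, 90668978 to 90670035, plus strand) had 526 CPM in wt/wt 1, 498 in wt/wt 2, 8792 in fl/fl 1 and 3084 in fl/fl 2. Both fl/fl libraries lay far above both wt/wt libraries, and fl/fl 1 stood well above fl/fl 2. The wt/wt mean was 512 ± 19.7 CPM (SD, n = 2) and the fl/fl mean 5938 ± 4036 CPM (SD, n = 2). The fitted log2 fold change of 3.54 ± 0.48 (SE) passed the test (adjusted p = 0.0163, edgeR). Leaving out fl/fl 1 gave 2.55, and leaving out fl/fl 2 gave 4.11. In a bulk library, more cells that make an RNA and more of that RNA per cell cannot be told apart.

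S100a9 (ENSMUSG00000056071; chromosome 3, 90692632 to 90695721, minus strand) held 923 and 1200 CPM in the wt/wt libraries and 12617 and 5566 CPM in the fl/fl libraries. As with its partner, the groups did not overlap and fl/fl 1 was the highest library. The means were 1061 ± 196 CPM (SD, n = 2) and 9091 ± 4985 CPM (SD, n = 2), for a log2 fold change of 3.10 ± 0.40 (SE; adjusted p = 0.0151, edgeR). It was 2.35 when fl/fl 1 was left out and 3.58 when fl/fl 2 was. Neither gene passed in edgeR once a wt/wt library was left out, at adjusted p = 0.182 and 0.180 without wt/wt 1 and 0.121 and 0.100 without wt/wt 2. The log2 fold changes were then 3.53 and 2.87, and 3.50 and 3.30. In each of those fits 0 genes of the whole table passed, while 1576 and 2333 had an unadjusted p under 0.05, and the spread rested on the fl/fl pair alone.

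The pair took a larger share of all counts in the fl/fl libraries. S100a9 took 0.0905% of all counts in wt/wt 1 (95% Wilson interval 0.0893 to 0.0917) and 0.123% in wt/wt 2 (0.1219 to 0.1245), against 1.22% in fl/fl 1 (1.22 to 1.23) and 0.569% in fl/fl 2 (0.565 to 0.572). S100a8 took 0.0516% (0.0507 to 0.0526) and 0.0511% (0.0503 to 0.0520) in the wt/wt libraries, and 0.851% (0.846 to 0.855) and 0.315% (0.312 to 0.318) in the fl/fl libraries. These intervals treat every count as a separate molecule and leave out the spread between samples. PCR copies are not separate molecules, so the intervals can be too narrow even for counting error. Per kilobase of exon, S100a9 was the most abundant gene of the table in both fl/fl libraries, and ranked 18 and 10 in wt/wt 1 and 2. S100a8 ranked 2 and 3 in the fl/fl libraries and 61 and 59 in the wt/wt libraries.

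Levels of different members can be compared per kilobase of exon, counting the exons of all annotated isoforms. In wt/wt the order began with S100a9 at 1767 and 2299 CPM per kb and S100a8 at 758 and 718. Next came S100a6 (421 and 362), S100a11 (311 and 403) and S100a10 (330 and 283), and neighbours among these 3 overlapped. S100a13 at 63.8 and 50.5 and S100a1 at 33.4 and 31.5 CPM per kb stood lower, and S100a4 was last at 2.23 and 1.14. In fl/fl the order began with S100a9 at 24170 and 10663 and S100a8 at 12669 and 4444 CPM per kb. S100a11 (992 and 487) and S100a6 (770 and 589) overlapped there, and S100a10 (297 and 276) now stood below both. The order depends on the exon lengths used, such as 511 bases for S100a11 and 1367 for S100a6. Not divided by length, S100a11 at 249 CPM was below S100a10 at 334 CPM in fl/fl 2. Likewise, S100a6 at 575 CPM was above S100a8 at 526 CPM in wt/wt 1. S100a13 at 83.2 and 89.1, S100a1 at 51.4 and 46.4 and S100a4 at 0.997 and 2.44 kept the last 3 places.

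**Figure D1:**
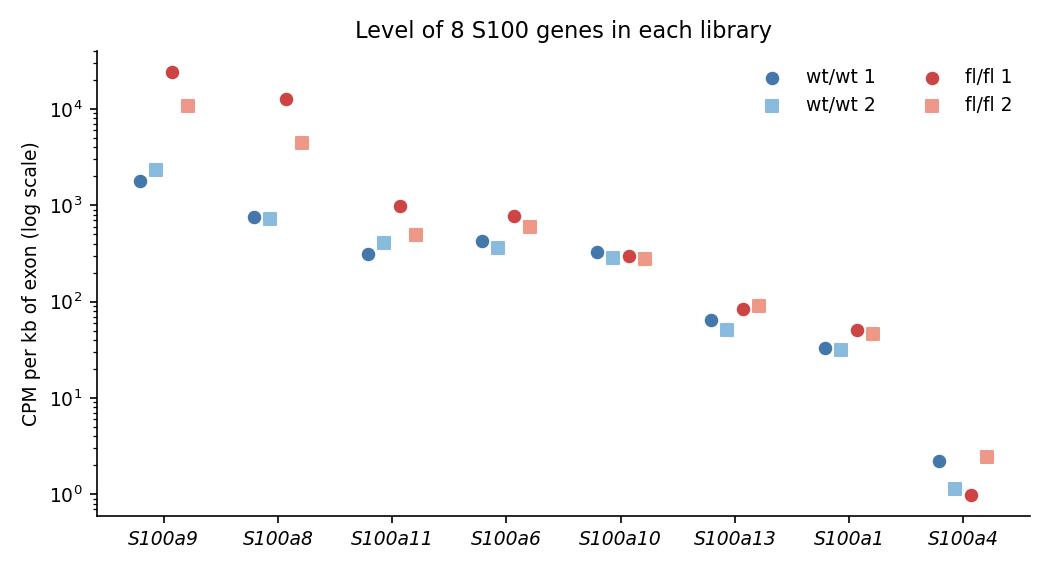
Level of each of the 8 S100 genes in CPM per kb of exon (log axis), with 1 point per library and blue for wt/wt, red for fl/fl. S100a9 runs from 1767 and 2299 in the wt/wt libraries to 24170 and 10663 in the fl/fl libraries, whereas the S100a10 points overlap and S100a4 lies at or below 2.44.

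S100a6, the gene of calcyclin, which binds annexins and the ubiquitin adaptor Cacybp, held 575 and 496 CPM in the wt/wt libraries and 1052 and 805 CPM in the fl/fl libraries. The fl/fl libraries were both above the wt/wt libraries, with a log2 fold change of 0.80 ± 0.20 (SE), but S100a6 did not pass in edgeR (adjusted p = 0.0683). It lay close to the threshold and passed in 5 of 13 alternatives, with adjusted p = 0.0498 by library size only, 0.00103 without a filter, 0.00679 in DESeq2, 0.0472 with the replicate number as a block and 0.0106 without fl/fl 2.

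S100a11, whose protein binds annexin A1, held 159 and 206 CPM in the wt/wt libraries and 507 and 249 CPM in the fl/fl libraries. Here fl/fl 1 stood apart, and fl/fl 2 was nearer to the wt/wt libraries than to it. The log2 fold change of S100a11 was 1.05 ± 0.33 (SE; adjusted p = 0.122, edgeR), falling to 0.41 when fl/fl 1 was left out and reaching 1.48 when fl/fl 2 was, where it passed (adjusted p = 0.00249). It also passed in DESeq2 (adjusted p = 0.0240) and without a filter (5.27e-06). A processed pseudogene, S100a11-ps, had 0 counts in every library.

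S100a10 encodes a member that has lost calcium binding and holds annexin A2 in a complex at the membrane, where it aids plasmin formation. It held 400 and 343 CPM in the wt/wt libraries and 360 and 334 CPM in the fl/fl libraries. The fl/fl values lay within or just below the range of the wt/wt values, and S100a10 differed by a log2 fold change of −0.10 ± 0.17 (SE; adjusted p = 0.798, edgeR). Over 13 alternatives it ran from −0.20 to −0.03 and never passed. S100a10 (93555080 to 93564643) and S100a11 (93520488 to 93526287), both on the plus strand of chromosome 3, lie apart from the cluster that holds the other members.

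S100a13, whose protein takes part in the release of secreted proteins that lack a signal peptide, held 45.6 and 36.1 CPM in the wt/wt libraries and 59.5 and 63.7 CPM in the fl/fl libraries. The fitted difference was a log2 fold change of 0.59 ± 0.18 (SE; adjusted p = 0.115, edgeR). S100a1, best known as a regulator of calcium handling in heart muscle, held 23.2 and 21.9 CPM in the wt/wt libraries and 35.6 and 32.2 CPM in the fl/fl libraries, for 0.59 ± 0.18 (SE; adjusted p = 0.112, edgeR). Both genes showed the same small gap between genotypes and passed in 0 of 13 alternatives. Their 5′ ends lie head to head on opposite strands, with no exonic base in common.

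S100a4, the gene of metastasin, which binds non-muscle myosin, had 29 and 18 counts in the wt/wt libraries and 10 and 25 in the fl/fl libraries, or 1.30, 0.663, 0.582 and 1.43 CPM. The groups overlapped, and the log2 fold change of 0.04 ± 0.77 (SE; adjusted p = 0.985, edgeR) changed sign when wt/wt 2 or fl/fl 2 was left out, at −0.37 and −0.74. This low level is uncertain as a measure of S100a4 RNA. In GENCODE M21, 302 of its 584 exonic bases (51.7%) are shared with Gm42674, an overlapping gene model on the same strand, which had 0 counts in all libraries. Of 140 protein-coding genes whose exonic bases are all shared with other genes on the same strand, 140 had 0 counts in every library, against 32.3% of 20216 protein-coding genes that share none. No other member shares exonic bases with another gene.

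**Figure D2:**
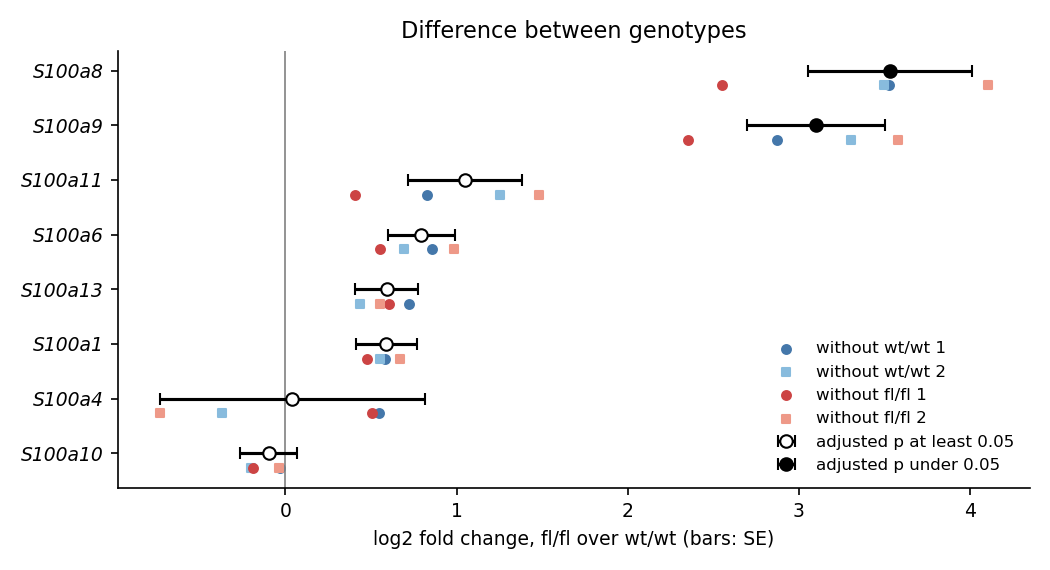
Log2 fold change of fl/fl over wt/wt for each member (black, with SE bars; filled where the adjusted p is under 0.05), with the value after leaving out each library as a coloured point below it. S100a8 and S100a9 stay at or above 2.35 in every fit, S100a11 falls to 0.41 without fl/fl 1, and S100a4 lies on both sides of 0.

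Ratios within a library do not depend on its scaling, and 7 were compared, of which those of S100a8 to S100a9 and S100a10 to Anxa2 were planned and the other 5 were added after the data were seen. With 2 libraries against 2, the smallest p that an exact two-sided permutation test can give is 0.333, so none of the ratios could pass. Per kilobase, S100a9 stood at 5.36 and 8.13 times S100a10 in the wt/wt libraries and at 81.3 and 38.7 times in the fl/fl libraries (exact permutation p = 0.333, adjusted over 7 ratios 0.466). Against S100a6 it stood at 4.20 and 6.34 times in the wt/wt libraries and at 31.4 and 18.1 times in the fl/fl libraries (exact permutation p = 0.333, adjusted 0.466). Both ratios were thus higher in both fl/fl libraries.

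Ratios were also taken between the broadly expressed members. The ratio of S100a6 to S100a10 was 1.27 and 1.28 in the wt/wt libraries and 2.59 and 2.14 in the fl/fl libraries, and that of S100a11 to S100a10 was 0.942 and 1.43 against 3.34 and 1.77 (exact permutation p = 0.333 for each, adjusted 0.466). Neither ratio overlapped between the genotypes, at differences of 0.88 and 1.07 on the log2 scale, beside 3.09 for S100a9 to S100a10.

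The proportion of the calprotectin subunits overlapped between the genotypes. The ratio of S100a8 to S100a9 was 0.429 and 0.312 in the wt/wt libraries and 0.524 and 0.417 in the fl/fl libraries (log2 difference 0.35, exact permutation p = 0.667, adjusted 0.778). The ratio of S100a10 to Anxa2 was 1.09 and 0.804 in the wt/wt libraries and 0.723 and 0.729 in the fl/fl libraries (log2 difference −0.37, or −0.15 without wt/wt 1 and −0.58 without wt/wt 2; exact permutation p = 0.333, adjusted 0.466). S100a9 to Ngp, a granule gene of neutrophils chosen for its likeness to S100a9, was 4.92 and 5.88 in the wt/wt libraries and 5.50 and 5.44 in the fl/fl libraries (exact permutation p = 1, adjusted 1). Because Ngp was chosen on these same libraries, a steady ratio followed from the choice and is no separate result.

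**Figure D3:**
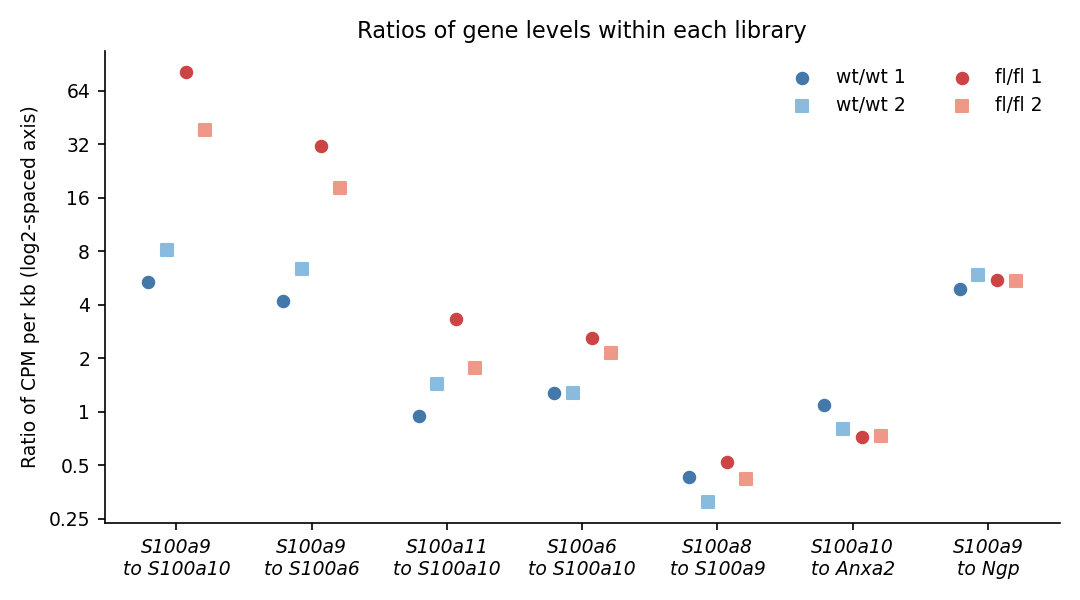
Ratio of gene levels per kb in each library (axis spaced by log2), for 7 pairs of genes, with blue for wt/wt and red for fl/fl. The S100a9 to S100a10 ratio runs from 5.36 and 8.13 in the wt/wt libraries to 81.3 and 38.7 in the fl/fl libraries, while S100a8 to S100a9 overlaps and S100a9 to Ngp lies between 4.92 and 5.88 in all libraries. Ngp was chosen for its likeness in these libraries.

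A set of 5 genes outside the family followed the S100a8 and S100a9 profile most closely among 3741 tested genes with a mean of at least 50 CPM. Likeness was the Euclidean distance between profiles of log2(CPM + 1) over the 4 libraries, each centred on its mean. The nearest was Ngp, at a distance of 0.24 and with 439 and 477 CPM in the wt/wt libraries and 5371 and 2393 CPM in the fl/fl libraries. Next came Serpinb1a, an inhibitor of neutrophil serine proteases (0.27), the stress kinase gene Mapk13 (0.31), the ficolin gene Fcnb (0.40) and Pglyrp1, which encodes a granule protein that binds bacterial cell wall (0.41). The mean over both genotypes lets in genes that are high in only 1 of them. Serpinb1a (20.3 and 22.5 CPM), Mapk13 (9.88 and 9.65) and Fcnb (13.5 and 11.6) were below 50 CPM in the wt/wt libraries. In all, 7 genes lay within a distance of 0.5. With single libraries left out, 3 to 5 of the 5 remained, Ngp and Serpinb1a each time. For S100a6 the nearest genes were Ube2s, a ubiquitin-conjugating enzyme (0.04), Cpne3, a copine (0.09), and Pla2g7, the enzyme that degrades platelet-activating factor (0.12), with 367 genes within 0.5. For S100a4 they were Zfas1, Siah2 and Tnks (0.03, 0.14 and 0.14), with 641 genes within 0.5 and only 10 to 29 counts behind the S100a4 values.

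Marker genes of neutrophils moved with S100a8 and S100a9, and their part in the result was not tested. The shares of all tested genes called were 2.69% higher and 3.16% lower. Of 18 neutrophil markers other than S100a8 and S100a9, 11 rose and 7 did not pass, with a median log2 fold change of 2.96, and none was at 0 counts. Their summed level was 2682 and 3443 CPM in the wt/wt libraries and 21670 and 10643 CPM in the fl/fl libraries. By mean CPM over all 4 libraries the highest were Ngp (log2 fold change 3.08, or 2.35 without fl/fl 1) and the lactoferrin gene Ltf (3.04). Such a mean over both genotypes favours genes that are high in 1 of them. In the wt/wt libraries Csf3r, the receptor gene for the growth factor G-CSF, was the highest at 458 and 693 CPM, and it held 857 and 1058 CPM in the fl/fl libraries (0.73, adjusted p = 0.131, edgeR). Itgam held 383 and 501 against 454 and 368 CPM (−0.11, adjusted p = 0.821, edgeR). Of 12 granulocyte precursor markers, 9 rose and 3 did not pass (median 3.07), and the sum was 321 and 275 CPM in the wt/wt libraries and 2107 and 929 CPM in the fl/fl libraries. Ctsg, which rose, had 9 counts in wt/wt 1, under the filter's minimum of 10, so it needed fl/fl to pass the filter. Igsf6 (0.48, adjusted p = 0.141, edgeR) and the proteinase gene Prtn3 (4.19, or 3.24 without fl/fl 1) had the highest mean CPM over all 4 libraries. Igsf6 made up most of the precursor sum in the wt/wt libraries, at 222 and 190 CPM. As with S100a8 and S100a9, both sums were highest in fl/fl 1. Ngp and Fcnb, counted in these lists, are also among the nearest profiles above.

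Markers of monocytes and macrophages were counted in the same way, beside the same shares of all tested genes (2.69% higher and 3.16% lower). Of 12 monocyte markers, 2 rose (Hp and Mgst1), 1 fell (Fn1) and 9 did not pass (median 0.29), with sums of 16382 and 14672 CPM in the wt/wt libraries and 23184 and 17696 CPM in the fl/fl libraries. The highest by mean CPM over all 4 libraries were Nr4a1 (0.28, adjusted p = 0.509, edgeR) and Chil3 (2.33, adjusted p = 0.0865, edgeR), the latter at 1370 and 714 CPM in the wt/wt libraries and 8404 and 2069 CPM in the fl/fl libraries. In the wt/wt libraries Fn1, the fibronectin gene, held 4708 and 3806 CPM beside 3786 and 4249 for Nr4a1. Of 8 tested Kupffer cell and macrophage markers, of 13 listed, 3 fell (C1qa, C1qb and C1qc) and 5 did not pass (median −1.33), and the sum was 2601 and 2480 against 1121 and 1392 CPM. By mean CPM over all 4 libraries the highest were Csf1r (−0.70, adjusted p = 0.116, edgeR) and C1qb, which fell by 2.83 (−3.83 without fl/fl 1), although in the fl/fl libraries Adgre1, at 150 and 156 CPM, was above C1qb, at 70.5 and 24.4 CPM. The sort is directed against CD3 and CD11c, and CD11b+ NK cells, basophils and eosinophils can pass it. The remaining lists are given as summed CPM, wt/wt against fl/fl. T and NK cells had 4.76 and 4.35 against 30.8 and 23.2. Basophils and eosinophils had 7.86 and 13.9 against 47.4 and 24.9, and dendritic cells 202 and 190 against 56.8 and 90.5. Red cells and platelets had 32.7 and 33.7 against 41.6 and 106, and B and plasma cells 145 and 171 against 85.4 and 144. Hepatocytes had 59.5 and 37.4 against 20.96 and 95.2, and endothelium 18.9 and 14.8 against 17.8 and 16.9. Stellate cells, fibroblasts and bile duct had 23.8 and 8.03 against 6.11 and 7.93. Across those 8 lists 3 genes rose and 2 fell. These were Nkg7 and Gzma, granule genes of cytotoxic cells, and Prg2, a granule gene of eosinophils, which rose, and Itgax and the platelet factor gene Pf4, which fell. Tested genes numbered 4 for T and NK cells and 4 for B and plasma cells. They numbered 6 each for dendritic cells, for basophils and eosinophils, and for red cells and platelets. Hepatocytes had 7, endothelium 5, and stellate cells, fibroblasts and bile duct 2. Prg2 had 0 counts in both wt/wt libraries and 17 and 47 in the fl/fl libraries, so it passed the filter through fl/fl only. In the wt/wt libraries Nkg7 held 1.30 and 0.958 CPM and Gzma 1.21 and 1.18 CPM, also low levels. Siglech, of 8 dendritic cell markers, had 0 counts in every library. So did Lrat, Krt19 and Epcam, of the 8 for stellate cells, fibroblasts and bile duct. Other markers of the same lists had counts, such as Flt3 (270 to 467) and Krt7 (30 to 169). The zeros therefore do not show that those cell types were absent. Marker genes given by name without the rule for the 2 highest were chosen after their values were seen.

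Of 12 tested receptors for S100 proteins, 1 rose, 0 fell and 11 did not pass, with a median log2 fold change of −0.04. The shares of all tested genes called were 2.69% higher and 3.16% lower, beside which counts of 1 or 2 genes in such short lists say nothing particular to the list. The one that rose was Mcam, a melanoma adhesion molecule that binds calprotectin subunits, at 0.314 and 1.11 CPM in the wt/wt libraries and 23.6 and 5.36 CPM in the fl/fl libraries (4.31 ± 0.86, SE; adjusted p = 0.0381, edgeR), or 2.85 without fl/fl 1 (adjusted p = 0.0519) and 5.50 without wt/wt 2. Limma-voom did not call it (0.124). Mcam had 7 counts in wt/wt 1, under the filter's minimum of 10, so it needed fl/fl to pass the filter. Tlr4 held 34.0 and 29.1 against 36.3 and 22.6 CPM, and Ager, the gene of RAGE, 6.69 and 9.91 against 13.4 and 8.16 CPM. Both overlapped between the genotypes. At an unadjusted p under 0.05 edgeR gave 3 receptors higher and 3 lower, DESeq2 called 2 higher and 3 lower, and limma-voom called 0.

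Of 17 tested partners of S100 proteins, from 19 listed, 2 rose, 0 fell and 15 did not pass (median 0.21), where 2.69% of all tested genes were called higher and 3.16% lower. Both that rose were annexins, calcium-dependent binders of membrane lipids. Anxa1, the S100a11 partner that restrains neutrophil entry, held 282 and 310 CPM in the wt/wt libraries and 1720 and 736 CPM in the fl/fl libraries (2.05 ± 0.38, SE; adjusted p = 0.0306, edgeR), or 1.28 without fl/fl 1. Anxa7 held 96.2 and 104 against 174 and 171 CPM (0.78 ± 0.15, SE; adjusted p = 0.0351, edgeR), with adjusted p = 0.0594 without fl/fl 1. Anxa2, the partner of S100a10, held 1130 and 1312 against 1533 and 1411 CPM (0.27, adjusted p = 0.421, edgeR). For falls, 1 partner had an unadjusted p under 0.05 in edgeR, and DESeq2 and limma-voom called 0.

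Of 17 transcription factors known to act on S100 genes or in myeloid development, 2 rose, 4 fell and 11 did not pass (median −0.10). The shares of all tested genes called were 2.69% higher and 3.16% lower. Cebpe and Gfi1 were already counted among the granulocyte precursor markers, so the lists are not separate. Cebpe, needed for late neutrophil maturation, held 9.70 and 9.58 CPM in the wt/wt libraries and 110 and 45.4 CPM in the fl/fl libraries (3.01 ± 0.41, SE; adjusted p = 0.0163, edgeR), or 2.20 without fl/fl 1. Klf5 rose from 0.404 and 1.18 to 13.4 and 5.82 CPM (3.57 ± 0.65, SE; adjusted p = 0.0296, edgeR), or 2.81 without fl/fl 1 and 4.55 without wt/wt 2, and limma-voom did not call it (0.0553). With 9 counts in wt/wt 1, under the filter's minimum of 10, Klf5 also needed fl/fl to pass the filter. Those that fell were Runx1, a factor of blood development, by 1.23, Hif1a, the oxygen-sensing factor, by 1.16, the immediate early gene Egr1 by 0.85 and Cebpa, the C/EBP factor of granulocyte commitment, by 0.71 on the log2 scale. Cebpa no longer passed without fl/fl 1 or fl/fl 2 (adjusted p = 0.0628 and 0.0583). Stat3, through which the IL-10 receptor signals, held 338 and 313 against 346 and 324 CPM. Each edgeR call of a receptor, partner, factor or marker was lost when either wt/wt library was left out.

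The rise of S100a8 and S100a9 was set beside their neighbours on chromosome 3, a comparison added after the data were seen. Within 1000 kb of the first base of S100a8, 27 tested genes outside the family had a median log2 fold change of −0.04, from −1.36 to 0.99. None of them passed in edgeR, where 3 had an unadjusted p under 0.05, 1 higher and 2 lower. DESeq2 called 1 lower and limma-voom 0. Over all 13496 tested genes 5.85% passed in edgeR and 3040 had an unadjusted p under 0.05. Beside these shares, the counts among 27 genes say nothing particular to the neighbours. All of the 27 but Pglyrp4 lie at lower coordinates than S100a8. In the same window the tested S100 genes that are nearest to the pair, S100a6 and S100a4, were at 0.80 and 0.04, and neither passed. S100a7a lies nearer to S100a8 than both, but did not pass the filter on low counts.

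**Figure D4:**
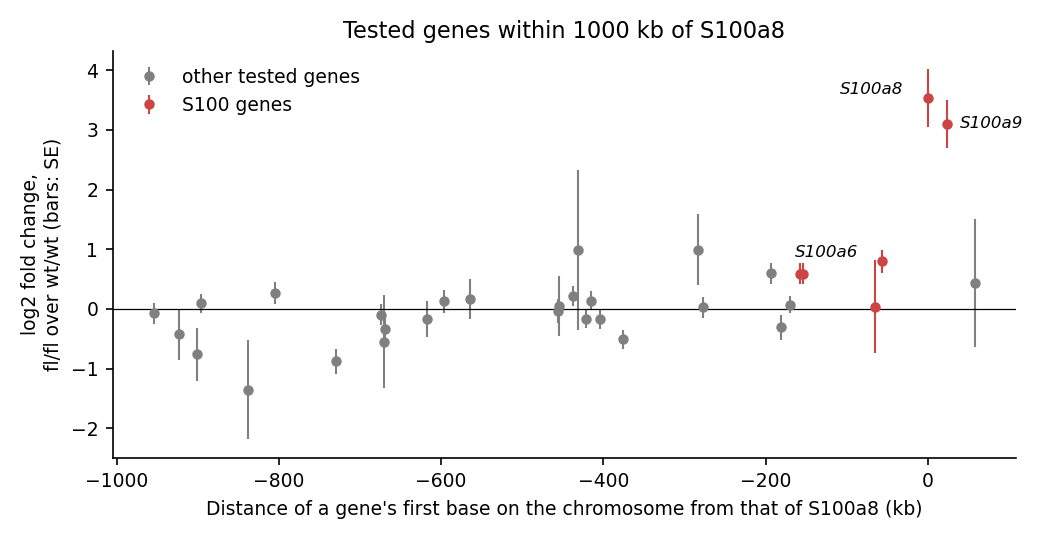
Log2 fold change of fl/fl over wt/wt, with SE bars, of every tested gene within 1000 kb of S100a8, against the distance between the genes' first bases on the chromosome. S100a8 and S100a9 stand at 3.54 and 3.10, and the 27 genes outside the family (grey) lie between −1.36 and 0.99.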

How the data were processed

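The authors deposited 1 table of raw gene-level counts that covers the 4 libraries. The submitters' processing notes name FastQC 0.11.5, Trimmomatic 0.33, STAR 2.5.0 and the GRCm38 build; how reads were counted, with which strand setting and annotation, is not given in the sources used here. GENCODE M21 named 55227 of 55487 identifiers and gave positions and exon lengths. Promoter letters are from RefSeq (GRCm38.p6), whose table matched 7 of the 8 members. The genotypes were compared in R 4.3.3 with edgeR 4.0.16: filterByExpr at a minimum count of 10 (13496 of 22696 genes with any count), TMM scaling, the quasi-likelihood F test without covariates, and two-sided p-values adjusted by Benjamini-Hochberg over all tested genes. Fold changes (fl/fl over wt/wt) used a prior count of 0.125, and their SE was taken as |log2 fold change| divided by √F. The code was tested on simulated data. Total counts set a floor of 3 counts, 0.111 to 0.175 CPM, for a gene at 0.

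The members and lists were chosen with earlier results of these data known. Named were all members and other S100 genes, list genes past the threshold with Anxa2, Ager and Tlr4, the nearest profiles, and the 2 most abundant markers of each list, given here for the 4 myeloid lists. In the monocyte list and in the red cell and platelet list, 1 marker each is not reported here. They were left out of those lists' counts, medians and sums after the values were seen, for a reason unrelated to the values, and the other lists are whole. Alternatives were RLE, upper quartile and library size scaling, no filter, a stricter filter at 5 CPM, a larger prior count (5), DESeq2 1.42.0, voom of limma 3.58.1, the replicate number as a block, and leaving out each library.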

Additional observations from a re-analysis of the deposited data

How the results depend on the processing

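With 2 libraries a group and fl/fl 1 and 2 far apart, the size of each rise is loosely fixed, and counting depth limits only S100a4 and the rarer S100 genes. The direction of every member but S100a4 was the same in all 13 alternatives. S100a4 was at −0.37 without wt/wt 2 and −0.74 without fl/fl 2, in a range of −0.74 to 0.55 over the leave-one-out fits, and it was not tested under the filter at CPM of at least 5. Over all genes, 363 were higher and 427 lower, against 1017 and 1071 without a filter and 784 and 834 in DESeq2. Members called higher numbered 2, against 4 without a filter and 4 in DESeq2. With single libraries left out, the counts ran from 0 to 811 higher and 0 to 666 lower over all genes and from 0 to 4 higher among the members. They were 0 without wt/wt 1 or wt/wt 2, and the highest without fl/fl 2. With the replicate number as a block, 602 genes were higher; S100a6 joined S100a8 and S100a9 past the threshold (adjusted p = 0.0472), and no member's call was lost. The numbers are shared by title only: deviations of replicate 1 from its group mean correlated at 0.01 between the genotypes across 13496 genes, which are not independent. The log2 ratio of S100a10 to Anxa2 differed by −0.37, from −0.58 to −0.15 when each library was left out, and that of S100a8 to S100a9 by 0.35, from 0.12 to 0.58. The causes were not tested.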

Other observations

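The rarer S100 genes were close to absent from these cells. Of 11 further symbols looked up, 9 were in the table and none passed the filter on low counts. S100a5, S100g and S100z had 0 counts in every library, which allows up to 3 counts, or 0.111 to 0.175 CPM. S100b, a gene of glia and some other cells, had 2 and 6 counts in wt/wt 1 and 2 and 1 and 0 in fl/fl 1 and 2. S100a16 had 5, 2, 4 and 0, S100a2 had 4, 3, 6 and 2, S100a3 had 0, 2, 0 and 2, and S100a14 had 0, 0, 2 and 1. S100a7a, the mouse gene nearest to psoriasin, had 18 counts in fl/fl 1, 1 in fl/fl 2, and 0 and 3 in the wt/wt libraries, so that its highest value came from the library with the most S100a8 and S100a9. Together the S100 genes took 0.260% and 0.288% of all counts in the wt/wt libraries and 2.27% and 1.04% in the fl/fl libraries, and S100a8 with S100a9 made up 54.6% and 60.6% of those counts in the wt/wt libraries and 91.4% and 85.3% in the fl/fl libraries.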
